A study of Mus musculus with 2 samples.

Results

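The genes described here are 8 transcription factor genes named for their part in epidermis and in the basal layer of layered epithelium: Trp63, Grhl1, Grhl2, Grhl3, Ehf, Elf3, Klf4 and Klf2. They were chosen by name, and all 8 were found among the 32285 genes that both count matrices list. Their UMIs (unique molecular identifiers, each counting 1 captured RNA molecule) were followed across cell clusters of the mouse thymus, from cells high in the chemokine gene Ccl21a to keratinocyte-like cells. The study compared thymic epithelial cells labelled KO and WT for Foxp1, a forkhead transcription factor gene, and its title concerns expression that depends on Fezf2, the diversity of mimetic cells and central tolerance. Live EPCAM+ cells were sorted by flow cytometry after liberase and DNase digestion and a Percoll gradient, and each group is 1 droplet library. The group labelled Foxp1 KO is Cre+ and the group labelled Foxp1 WT is Cre-, although the genotype field reads KO for both. The Cre driver, the deleted part of Foxp1 and the age, sex and number of the mice are each not given in the sources used here.

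Trp63 encodes p63, a relative of p53 that basal cells of skin and of other layered epithelia need to persist and to renew themselves. The grainyhead-like factors Grhl1, Grhl2 and Grhl3 control junction and barrier genes, Ehf and Elf3 are ETS-domain factors largely restricted to epithelia, and the zinc finger factor Klf4 is needed for the skin barrier, whereas its relative Klf2 is best known from endothelium and from T cells leaving the thymus. Medullary thymic epithelial cells (mTECs) share keratins with basal epidermis, and the subset called mimetic resembles peripheral cells such as keratinocytes or tuft cells, whose antigens it displays to developing T cells.

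The promoter sequences of the 3 genes whose levels were highest among epithelial clusters in the keratinocyte-like cluster (Grhl1, Grhl3 and Klf4, below) are shown as the regulatory context of those values. They are RefSeq sequences on build GRCm38.p6, for which 5 of the 8 genes had an entry, while Trp63, Grhl2 and Ehf had none. Each runs 5′ to 3′ on the gene's strand and ends just before the start site, except that the first Grhl1 window ends 4 bases short of it, where the GENCODE gene model begins. Capitals mark the only motif match found on either strand in the windows of these 3 genes, an 8-base KLF-type match (GGGNGTGG, here read on the opposite strand) from 118 to 111 bases upstream of the Grhl3 start.
Grhl1, first start, chr12:24572037-24572282, plus strand: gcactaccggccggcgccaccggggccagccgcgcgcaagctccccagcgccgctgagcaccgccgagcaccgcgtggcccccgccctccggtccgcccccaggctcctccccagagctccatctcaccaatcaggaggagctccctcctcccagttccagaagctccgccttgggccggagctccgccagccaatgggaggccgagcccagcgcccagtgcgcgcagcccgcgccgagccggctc
Grhl1, other start, chr12:24580469-24580718, plus strand: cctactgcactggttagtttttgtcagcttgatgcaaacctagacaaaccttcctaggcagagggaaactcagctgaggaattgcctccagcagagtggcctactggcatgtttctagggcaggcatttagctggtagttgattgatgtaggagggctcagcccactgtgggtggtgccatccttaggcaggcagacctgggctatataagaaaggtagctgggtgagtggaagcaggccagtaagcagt
Grhl3, chr4:135573633-135573882, minus strand: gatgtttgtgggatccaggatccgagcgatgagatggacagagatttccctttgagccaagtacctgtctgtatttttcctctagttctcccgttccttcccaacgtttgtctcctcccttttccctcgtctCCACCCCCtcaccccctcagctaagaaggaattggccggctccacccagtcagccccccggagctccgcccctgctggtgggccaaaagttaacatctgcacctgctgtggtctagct
Klf4, chr4:55532476-55532725, minus strand: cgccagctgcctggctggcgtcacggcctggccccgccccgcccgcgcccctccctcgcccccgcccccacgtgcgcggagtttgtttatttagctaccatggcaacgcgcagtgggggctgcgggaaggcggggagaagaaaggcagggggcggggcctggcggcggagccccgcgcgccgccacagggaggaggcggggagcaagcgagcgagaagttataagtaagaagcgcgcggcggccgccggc
The other motifs searched were a grainyhead motif (AACCNGTT), an ETS motif (CGGAAG) and a p63-type motif (CATG, any 6 bases and CATG again). Of 32851 promoters read over the same 250 bases, 15.9% held the KLF motif, 13.6% the ETS motif, 1.79% the grainyhead motif and 0.490% the p63-type motif. A match to 8 letters shared by so many promoters is a description of the sequence and not a binding site.

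The library labelled KO held 25233944 UMIs over 4277 barcodes and the library labelled WT 33120715 UMIs over 4957 barcodes, of which 3584 and 4037 cells passed the filters, with medians of 5097.5 and 6267 UMIs per cell. The libraries shared 5 barcodes, of which 3 were kept. Clustering of both libraries together gave 17 clusters, 13 of them epithelial with 7141 of the 7621 cells, and the 8 genes were kept out of the genes used for clustering. Of the epithelial clusters 10 carry a name from their markers, and clusters 4, 7 and 13 stay unnamed and are called by their leading genes. The targeted gene itself was not lower in the library labelled KO, with 405 CPM (UMIs of a gene scaled to a common total per class) over all epithelial cells where the other library had 252 CPM, and was above the other library in 13 of 13 epithelial clusters. Since these are counts over the whole gene, they cannot show whether a part of it is missing, and every direction below is between the libraries as labelled. With 1 library per group there is no replicate and no test, and all intervals are 95% intervals that cover counting error only. Wherever 2 values are joined by "and" without further words, the library labelled KO comes first.

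The 8 genes did not share a cluster. Each was at least 2-fold above the other epithelial cells in some cluster in both libraries, as were 58.6% of all genes with at least 50 epithelial UMIs. Trp63 was highest in the unnamed cluster 7 and Grhl2 in that cluster or in Ccl21 mTEC-like cluster 6, Grhl1, Grhl3 and Klf4 in the keratinocyte-like cluster, and Ehf and Elf3 in the larger tuft-like cluster. Among epithelial clusters Klf2 was highest in the Ccl21a-high cluster, and it was higher still in endothelial-like, fibroblast-like and mesothelial-like cells. By highest epithelial cluster, the "epidermal" part of the label therefore fits Grhl1, Grhl3 and Klf4, whereas Ehf, Elf3 and Klf2 were highest elsewhere. Elf3 was nevertheless also at least 2-fold above the other epithelial cells in keratinocyte-like cells in both libraries. Trp63 and Grhl2 both met that rule in clusters 6 and 7. There 8 and 7 of 14 basal structure genes met it, beside 7.29% and 7.11% of all genes. Fibroblast-like cells had 861 and 370.3 CPM of Klf4 beside 489.8 and 661 CPM in keratinocyte-like cells. For 7 of the 8 genes the same epithelial cluster was highest in both libraries, beside 51.8% of all genes, and the exception was Grhl2.

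**Figure D1:**
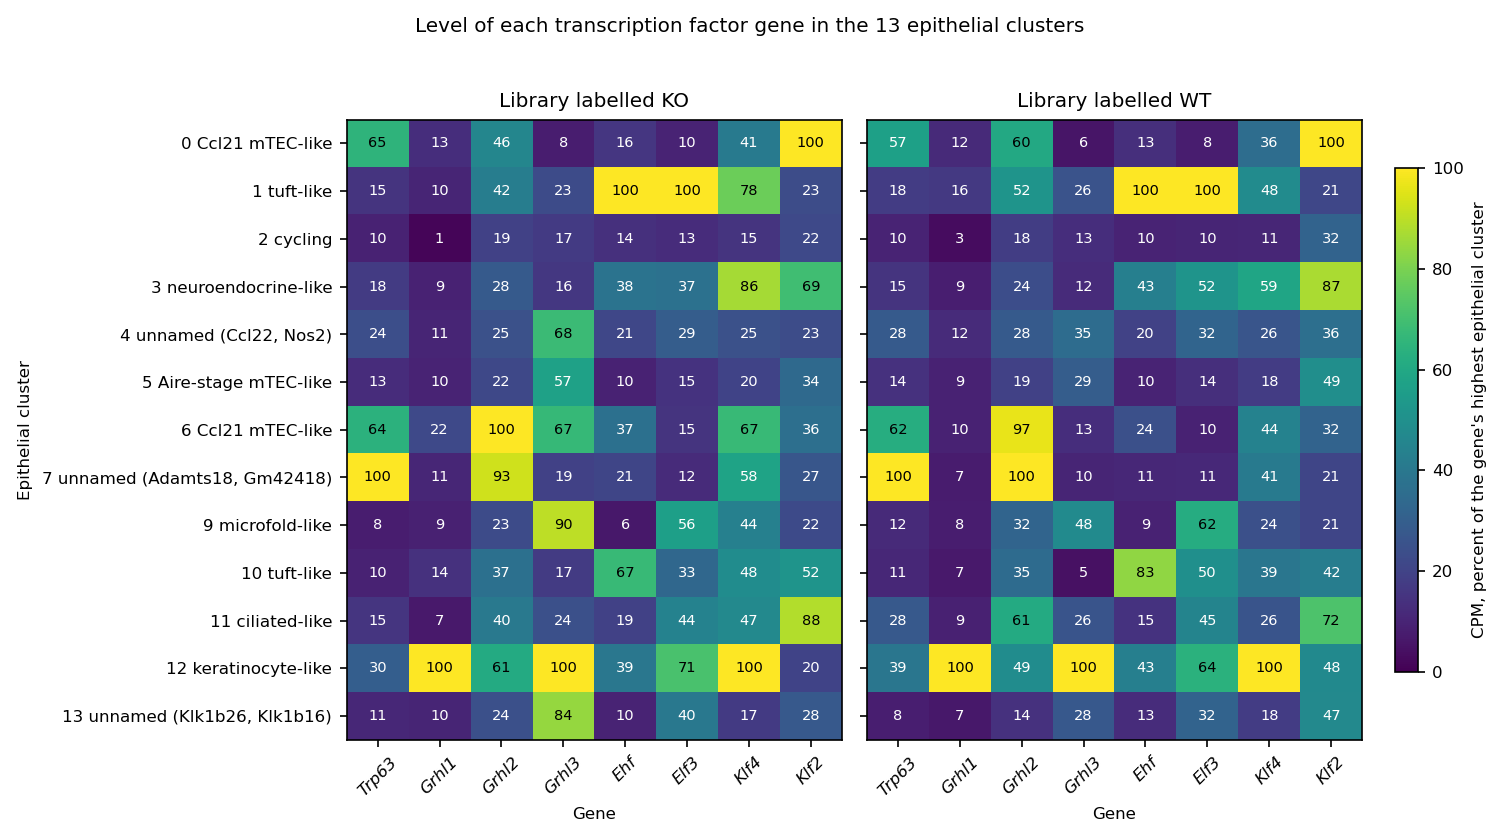
Heat map of the 8 genes (columns) in the 13 epithelial clusters (rows) for each library, with each cell giving the CPM as a percent of that gene's highest epithelial cluster in that library. Trp63 and Grhl2 peak in clusters 6 and 7, Ehf and Elf3 in tuft-like cluster 1, and Grhl1, Grhl3 and Klf4 in keratinocyte-like cluster 12.

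Trp63 (ENSMUSG00000022510, chr16:25683763-25892102, plus strand on mm10) was highest in the unnamed cluster 7, led by Adamts18 and Gm42418, at 560.1 and 511 CPM (731 and 355 UMIs). It followed at 360.3 and 317 CPM in Ccl21 mTEC-like cluster 6, led by Ifi202b, and at 365 and 291 CPM in the Ccl21a-high cluster 0. These 3 clusters stood apart from all others in both libraries, and the ranges of clusters 6 and 0 overlapped. Cluster 7 was 1.97 and 2.05 above the other epithelial cells on the log2 scale, cluster 0 was 1.44 and 1.30 above them, and cluster 6 was 1.19 and 1.40 above them. The same 2-fold rule was met by 7.11%, 4.18% and 7.29% of all genes in clusters 7, 0 and 6. Cluster 7 had the lowest depth of these 3, with a median of 2049 UMIs per cell, and met only 2 of the 8 Ccl21 mTEC markers, so its Trp63 level is that of an unnamed cluster.

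Below these came keratinocyte-like cells at 167 and 200.3 CPM of Trp63, and cluster 4 (led by Ccl22 and Nos2) at 135 and 145 CPM. Ciliated-like cells had 86.2 and 143 CPM, neuroendocrine-like cells 98.3 and 77.2 CPM, and tuft-like cluster 1 had 83.7 and 90.7 CPM, ranges that could not be placed in order. Endothelial-like cells, which should lack p63, had 70.4 and 63 CPM. Aire-stage mTEC-like cells, at 70.3 and 72.4 CPM, did not exceed that level beyond counting error, and tuft-like cluster 10, cycling, microfold-like and cluster 13 cells lay lower, between 42.7 and 62.8 CPM. Values at or below the endothelial-like level are read as background here and below, although that cluster itself held 384 and 315 CPM of Epcam. Fibroblast-like cells, with 9.90 and 0 CPM of Epcam, had 19.8 and 0 CPM of Trp63 over 24 and 12 cells. The background is therefore set high. Trp63 was above it in the 2 Ccl21 mTEC-like clusters, in cluster 7, in keratinocyte-like cells and in cluster 4. Aire-stage and cycling cells were not shown to exceed it, which does not show that they lack Trp63.

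Of the genes with the most similar pattern over the 13 epithelial clusters, the closest to Trp63 were Fat2, an atypical cadherin gene, with a correlation of at least 0.944 in both libraries, then Cdh3 (P-cadherin) and Cemip2, both at 0.94. Grhl2 was the member nearest to Trp63, at 0.83 and 0.87. These are correlations of log2(CPM + 10) over clusters of the same 2 libraries, among 14356 genes with at least 200 UMIs, and are given as descriptions.

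Among the grainyhead genes, Grhl2 was high with Trp63 in clusters 6 and 7 but not in the Ccl21a-high cluster. Grhl1 and Grhl3 were highest in the keratinocyte-like cluster. Grhl2 (ENSMUSG00000022286, chr15:37233036-37363569, plus strand) stood at 140.4 and 124 CPM in cluster 6 and at 130.3 and 128 CPM in cluster 7, which could not be ordered. Keratinocyte-like cells followed with 86.0 and 62.3 CPM, the Ccl21a-high cluster with 64.4 and 77.2 CPM, ciliated-like cells with 56.7 and 78.4 CPM and tuft-like cluster 1 with 59.6 and 66.1 CPM. These 4 overlapped each other, and cycling cells were lowest in the library labelled KO at 27.3 CPM. Endothelial-like cells had 20.5 and 14.1 CPM of Grhl2, below every epithelial cluster in both libraries. Clusters 6 and 7 were the only ones at least 2-fold above the other epithelial cells in both libraries. Cluster 6 had a median of 2887 UMIs per cell and cluster 7 one of 2049, beside 5744 in the Ccl21a-high cluster. Mitochondrial UMIs made up 4.45% to 5.10% in clusters 6 and 7 and 2.01% to 2.08% in the Ccl21a-high cluster. Malat1 was also higher in clusters 6 and 7 than in the Ccl21a-high cluster, as given above, and its part in the Grhl2 levels was not tested. Genes Gm16136 and Gm16137 overlap Grhl2 on the opposite strand, and whether the counting used strand is not given in the sources used here.

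Grhl1 (ENSMUSG00000020656, chr12:24572283-24617391, plus strand) was concentrated in keratinocyte-like cells, at 101 and 116 CPM (141 and 269 UMIs; intervals 85.1 to 119 and 102 to 130.3). Every other cluster lay at or below 22.5 CPM, which was the library labelled KO in cluster 6, where the other library had 11 CPM. Endothelial-like cells had 9.97 and 14.1 CPM, so the levels of Grhl1 outside the keratinocyte-like cluster were near background, and cycling cells had 1.48 and 3.95 CPM. The keratinocyte-like cells were 3.32 and 3.35 above the other epithelial cells on the log2 scale, and the highest cluster exceeded the lowest 68.5-fold and 29.3-fold. The nearest patterns to Grhl1 were those of Anxa9 (0.888), of Ivl, which encodes the cornified envelope protein involucrin (0.884), and of the membrane protease gene Tmprss13 (0.878).

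Grhl3 (ENSMUSG00000037188, chr4:135541888-135573630, minus strand), a factor needed for epidermal barrier formation and wound closure, had few UMIs. Keratinocyte-like cells had 28.0 and 55.0 CPM (39 and 128 UMIs), microfold-like cells 25.2 and 26.3 CPM, cluster 13 (led by Klk1b26 and Klk1b16) 23.6 and 15.3 CPM and cluster 4 had 19.1 and 19.4 CPM. In the library labelled KO the keratinocyte-like and microfold-like intervals overlapped, at 19.9 to 38.2 and 15.2 to 39.4 CPM, so the keratinocyte-like cells were set apart only by the other library. Aire-stage cells had 16.0 and 16.1 CPM of Grhl3, cluster 6 had 18.7 and 7.16 CPM, and endothelial-like cells had 12.9 and 10.9 CPM. The Ccl21a-high cluster, where Trp63 and Klf2 were high, had 2.19 and 3.20 CPM of Grhl3, close to the lowest. The endothelial-like values rest on 22 and 10 UMIs, and by the counting intervals only keratinocyte-like cells were above them in both libraries.

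Both ETS factor genes were highest in tuft-like cells. Ehf (ENSMUSG00000012350, chr2:103263433-103303278, minus strand) reached 630.1 and 755 CPM in tuft-like cluster 1 (783 and 2149 UMIs) and 425 and 629.5 CPM in tuft-like cluster 10, the cluster led by Rgs21 and the taste G protein gene Gnat3. Keratinocyte-like cells had 249 and 326 CPM and neuroendocrine-like cells 239 and 327 CPM, ranges that overlapped. Cluster 6 followed with 233 and 184 CPM and cluster 4 with 134 and 149.9 CPM. Against the other epithelial cells, cluster 1 was 2.28 and 2.34 higher on the log2 scale and cluster 10 was 1.51 and 1.69 higher, a rule met by 6.92% and 4.97% of all genes in those clusters. Microfold-like cells were lowest among epithelial clusters, at 39.8 and 71.5 CPM of Ehf. Endothelial-like cells had 69.8 and 72.8 CPM of Ehf and the 73 thymocyte-like cells had 182 and 148 CPM. Both clusters also held Epcam, at 384 and 315 CPM in endothelial-like and 351 and 360 CPM in thymocyte-like cells. Fibroblast-like cells (24 and 12) and mesothelial-like cells (10 and 7) had 0 CPM of Ehf in both libraries.

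Elf3 (ENSMUSG00000003051, chr1:135253575-135258568, minus strand), a factor of simple and differentiating epithelia, was also highest in tuft-like cluster 1, at 365 and 388 CPM. Keratinocyte-like cells came next with 260.3 and 248 CPM, then microfold-like cells with 206 and 241 CPM. Neuroendocrine-like, ciliated-like and tuft-like cluster 10 cells and clusters 13 and 4 lay between 107 and 201 CPM and overlapped in sequence. The tuft-like cells of cluster 1 were 2.07 and 1.98 above the other epithelial cells on the log2 scale, the keratinocyte-like cells 1.5 and 1.11, and the microfold-like cells 1.06 and 0.99. Elf3 was lowest in the Ccl21a-high cluster, at 35.9 and 31.2 CPM, under the 52.2 and 42.4 CPM of endothelial-like cells. Elf3 and Ehf therefore parted in microfold-like cells, where Elf3 was among its highest levels and Ehf at its lowest. Gm26642 overlaps Elf3 on the opposite strand.

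Klf4 (ENSMUSG00000003032, chr4:55527143-55532466, minus strand) was detected in every epithelial cluster. Among epithelial clusters it was highest in keratinocyte-like cells, at 489.8 and 661 CPM (683 and 1537 UMIs), then in neuroendocrine-like cells at 424 and 387 CPM. Tuft-like cluster 1 had 379.8 and 319 CPM, cluster 6 had 330.3 and 293 CPM, cluster 7 had 285 and 273 CPM and the Ccl21a-high cluster had 203 and 237 CPM. Cycling cells, at 73.1 and 71.4 CPM, cluster 13 cells, at 83.8 and 117 CPM, and Aire-stage cells, at 98.1 and 117 CPM, were lowest. Fibroblast-like cells had 861 and 370.3 CPM over only 24 and 12 cells, and endothelial-like cells had 272 and 222 CPM, cell types in which Klf4 is known to be expressed. The keratinocyte-like cells were 1.35 and 1.80 above the other epithelial cells on the log2 scale.

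Klf2 (ENSMUSG00000055148, chr8:72319033-72321656, plus strand) had its highest levels outside the epithelium. Endothelial-like cells had 408 and 230.4 CPM, mesothelial-like cells 447 and 388 CPM over 10 and 7 cells, and fibroblast-like cells 970.2 and 175 CPM. Within the epithelium the Ccl21a-high cluster had 131 and 158 CPM, ciliated-like cells 116 and 114 CPM and neuroendocrine-like cells 90.9 and 138 CPM. The Ccl21a-high cells were 1.57 and 1.24 above the other epithelial cells, and no other epithelial cluster met the 2-fold rule in both libraries. That cluster also held pericyte markers, with 1968 and 2487 summed CPM over 7 genes, and 54.7 and 46.0 summed CPM over 8 endothelial markers; their part in the Klf2 level was not tested. Keratinocyte-like cells had 26.5 and 75.2 CPM of Klf2, which placed them lowest of the epithelial clusters in the library labelled KO and in the middle in the library labelled WT.

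**Figure D2:**
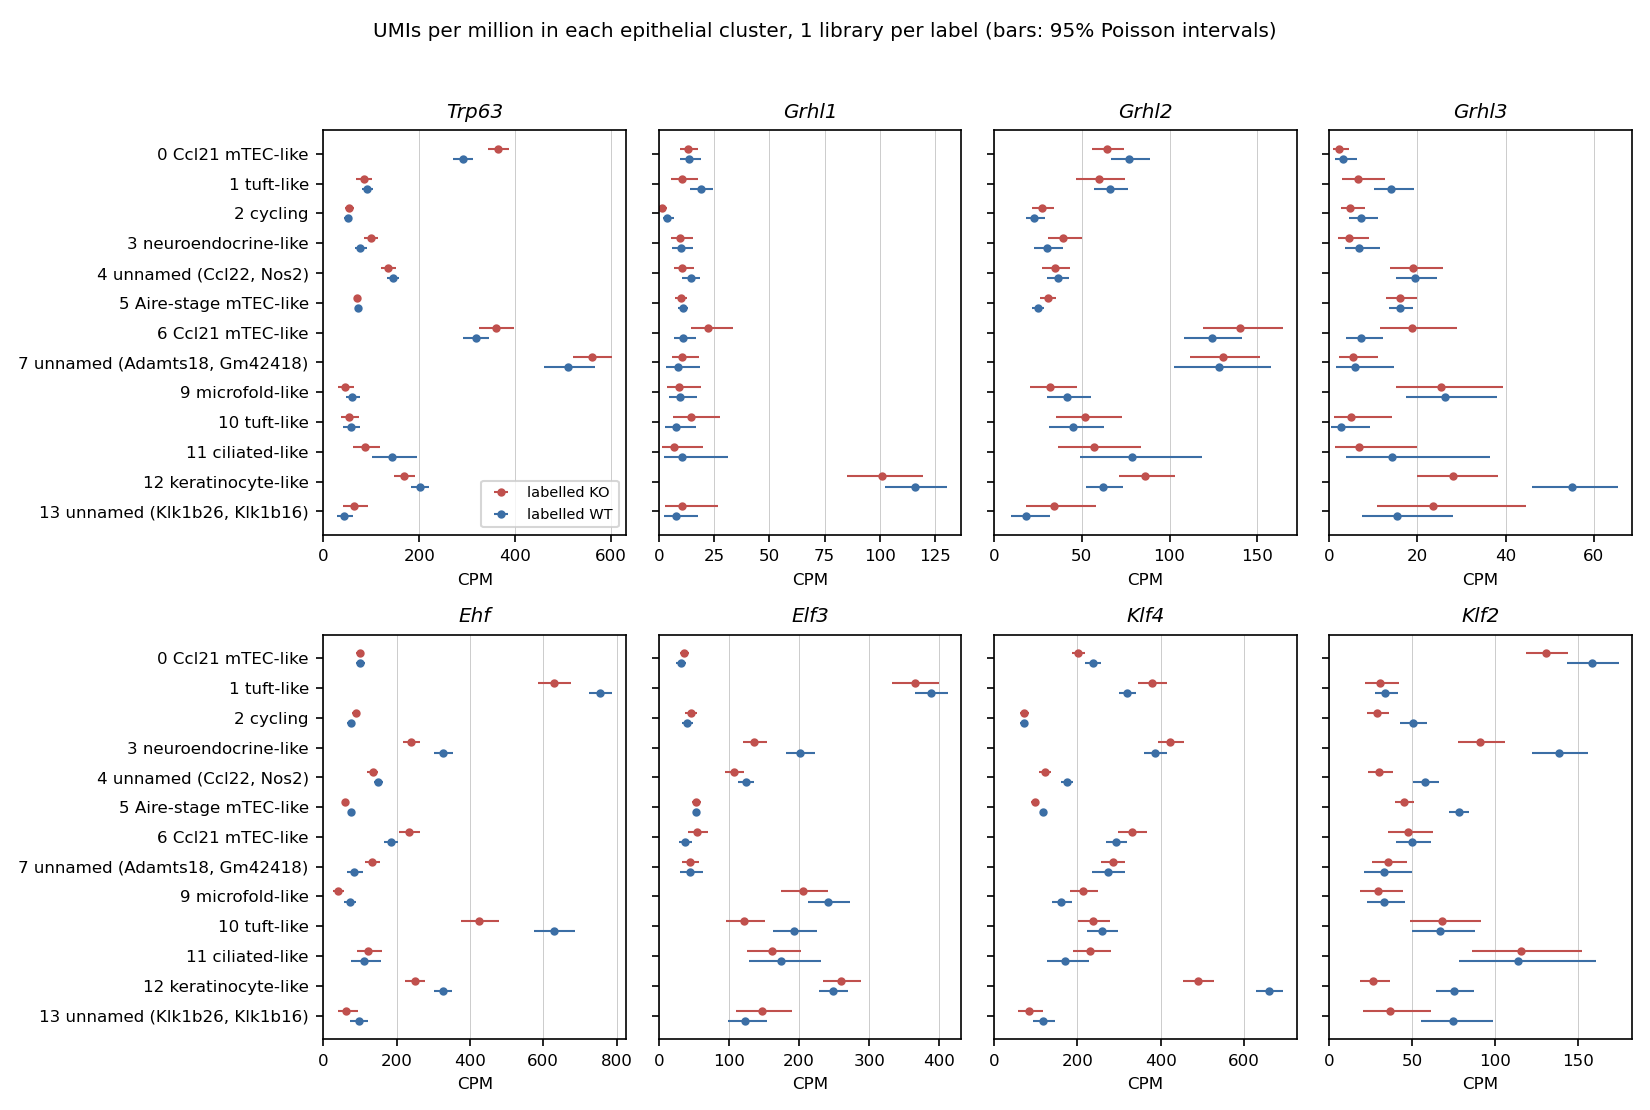
CPM (horizontal axis, from 0, on a scale of its own for each gene) of the 8 genes in the 13 epithelial clusters (vertical axis), with points for the library labelled KO (red) and the library labelled WT (blue) and bars for 95% Poisson intervals. Grhl1 stands alone in the keratinocyte-like cluster at 101 and 116 CPM, and for Klf2 the points of that cluster part, at 26.5 and 75.2 CPM.

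The keratinocyte-like cluster brought together more of these genes than any other epithelial cluster: Grhl1, Grhl3, Elf3 and Klf4 were each at least 2-fold above the other epithelial cells in both libraries, 4 of 8 beside 5.94% of all genes. It held 191 and 310 cells and met 10 of 12 keratinocyte markers together with 4 of 7 airway secretory markers, and its leading genes included Bpifa1 of the airway and Calm4, Spink5 and Krtdap of the cornifying epidermis. In a list of 15 keratinocyte differentiation genes, several of which also served as markers of the cluster, 14 met the same rule, the exception being Dsg1a. Of 18 other epithelial transcription factor genes 10 met it, among them Tfap2a, Tfap2c, Ovol1, Zfp750, Gata3 and Cebpa, which act in epidermal differentiation. Of 14 basal structure genes 4 met it (Krt5, Krt15, Perp and Pkp1), whereas 8 of the 14 did in cluster 6, beside 7.29% of all genes, and 7 in cluster 7, beside 7.11%. In the Ccl21a-high cluster 4 did, beside 4.18%. Of the 8 in cluster 6, Krt5, Krt14 and Itga6 also served as markers for its name. The hemidesmosome genes Itga6, Itgb4 and Dst met the rule in both clusters 6 and 7. Col17a1, which encodes another hemidesmosome protein, met it in neither.

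A finer clustering divided the 501 keratinocyte-like cells mainly into a part with 11 of 12 keratinocyte markers (212 cells, 80 and 132 per library, 210 of them from the cluster) and an airway secretory-like part with 6 of 7 markers of that type (295 cells, 272 of them from the cluster). Grhl1 had 179 and 196 CPM in the keratinocyte-like part against 64.2 and 47.5 CPM in the secretory-like part. Klf4 had 669 and 893 CPM against 394 and 515 CPM, and Grhl3 had 46.4 and 71.7 CPM against 22.5 and 39.9 CPM. These 3 genes were at least 1.5-fold higher in the keratinocyte-like part in both libraries, beside 8.78% of all genes. Grhl2, with 46.4 and 42.6 CPM against 106 and 77.6 CPM, and Elf3, with 189.9 and 172 CPM against 292 and 303 CPM, were at least 1.5-fold lower there, beside 13.2% of all genes.

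Trp63 was higher in the keratinocyte-like part by less than that fold, at 211 and 242 CPM against 152 and 179 CPM. Ehf pointed in opposite directions in the libraries, with log2 ratios of -0.34 and 0.30 between the parts, and Klf2 did so too, at 0.20 and -0.77. Elf3 met the 2-fold rule for the keratinocyte-like cluster as a whole but not for its keratinocyte-like part, where its log2 difference from the other epithelial cells was 0.64 with both libraries pooled, nor with classes taken from markers in each cell, where it was 0.45. Since genes that vary with these 8 were used to divide the cells, the contrasts between the parts describe the division.

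**Figure D3:**
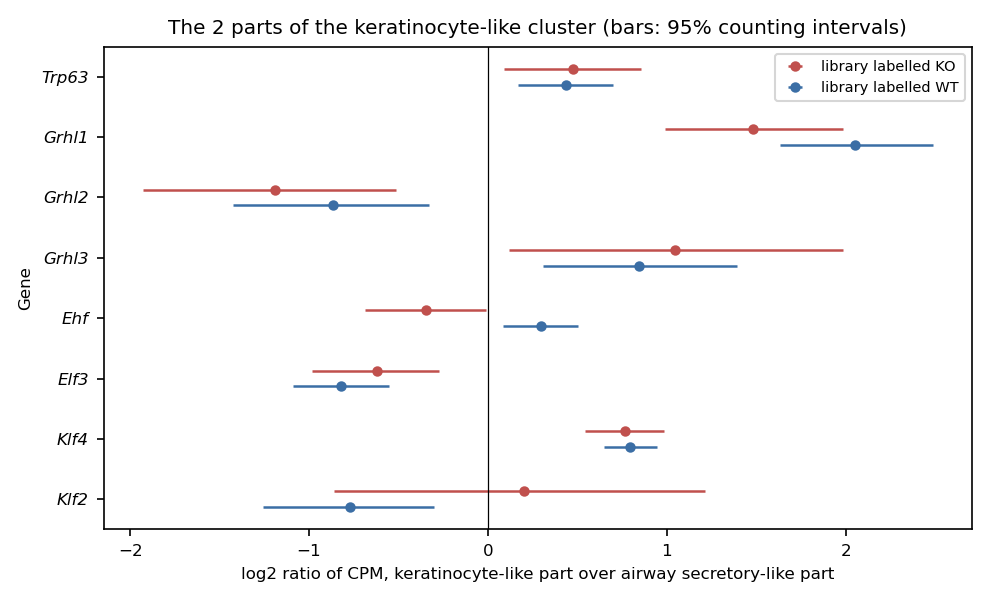
Log2 ratio of CPM between the keratinocyte-like and the airway secretory-like part of the keratinocyte-like cluster (horizontal axis) for the 8 genes (vertical axis) in each library, with bars for 95% counting intervals. Grhl1, Grhl3 and Klf4 lie above 0 and Grhl2 and Elf3 below 0 in both libraries, whereas Ehf and Klf2 lie on opposite sides.

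Division of the same cells by the suprabasal keratin genes Krt1 and Krt10, after thinning every cell to 2000 UMIs, gave 38 and 68 cells with such a UMI and 142 and 219 without it. Grhl1 was higher in cells with Krt1 or Krt10 by log2 1.07 and 1.1, at 173 against 82.3 CPM and at 192 against 89.7 CPM. Klf4 was higher by 0.83 and 0.65, so 2 of 8 genes passed 1.5-fold upward in both libraries, beside 5.75% of all genes. None passed it downward in both, beside 10.6% of all genes. Elf3 was lower in the library labelled WT only, by log2 -1.32 against -0.06 in the library labelled KO, and Grhl3 was higher in the library labelled KO only, by log2 2.44 (18 and 16 UMIs with and without) against 0.06. Cells with Krt1 or Krt10 also had less of the airway gene Bpifa1, by log2 -1.57 and -2.77, while the airway marker Ltf stood at 0.46 and -5.33. The basal keratin gene Krt14 stood at 0.97 and -1.60. The split thus overlaps the division into parts and does not grade differentiation by itself. Grhl1 and Klf4 were at least 1.5-fold higher on the keratinocyte side of both divisions in both libraries.

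After the same thinning, a Klf4 UMI was present in 50.6% and 61.0% of keratinocyte-like cells (of 180 and 287 cells, with 11 and 23 shallower cells left out). Ehf was seen in 35.6% and 42.5%, Elf3 in 37.2% and 33.4%, Trp63 in 27.2% and 30.3%, and Grhl1 in 19.4% and 19.2%. Grhl2 was seen in 12.2% and 13.2%, Grhl3 in 7.78% and 13.2%, and Klf2 in 4.44% and 10.8%. Endothelial-like cells at the same depth had Grhl1 in 1.0% and 1.18%, Grhl3 in 2.0% and 1.18%, Trp63 in 7.5% and 8.24% and Ehf in 8.0% and 10.6%. For these genes the shares in keratinocyte-like cells were higher in both libraries. That of Grhl3 in the library labelled KO rests on only 14 cells with a UMI and is not shown to differ beyond counting error. The shares of Elf3, Grhl2, Klf4 and Klf2 are given without such a comparison. Without thinning, the shares of keratinocyte-like cells, with median depths of 5522 and 6463 UMIs, were 77.0% and 82.6% for Klf4, 43.5% and 39.7% for Grhl1 and 14.1% and 24.2% for Klf2.

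Between the libraries, none of the 8 genes differed by 1.5-fold over all epithelial cells, where 7.51% of all genes were that much higher and 9.81% that much lower in the library labelled KO. Trp63 had 167 and 132 CPM, a log2 ratio of 0.34 (interval 0.27 to 0.40), and Grhl2 had 53.4 and 47.0 CPM, a log2 ratio of 0.19. The other 6 were lower in the library labelled KO, from Klf4 at log2 -0.10 to Grhl3 at -0.44. Cluster sizes differed between the libraries, among them cluster 7 with 545 and 261 cells and tuft-like cluster 1 with 204 and 426. When both libraries were given the same mixture of clusters, the ratio of Trp63 was 0.09, that of Ehf -0.22 in place of -0.39 and that of Elf3 -0.10 in place of -0.29. The ratio of Klf2 went the other way, to -0.56 in place of -0.40.

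In the keratinocyte-like cluster, Klf2 and Grhl3 were at least 1.5-fold lower in the library labelled KO, 2 of 8 beside 10.4% of all genes, and none was that much higher, beside 10.9%. Klf2 had 37 UMIs (26.5 CPM) in the library labelled KO and 175 UMIs (75.2 CPM) in the other, which is -1.5 on the log2 scale (interval -2.06 to -0.99). Grhl3 had 39 and 128 UMIs, a log2 ratio of -0.98 (interval -1.53 to -0.45). The Klf2 UMIs were not spread evenly, since 1 cell of the library labelled WT held 16 of them (9.14%) and 1 cell of the other library held 5 (13.5%). Of the remaining genes, Klf4 was lower at log2 -0.43 (interval -0.56 to -0.30) and Ehf at -0.39 (-0.58 to -0.20), and Grhl2 was higher at 0.47 (0.10 to 0.82), all under 1.5-fold. The intervals of Grhl1 (-0.19) and Elf3 (0.07) included 0, and that of Trp63 (-0.26) ended at -0.03.

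**Figure D4:**
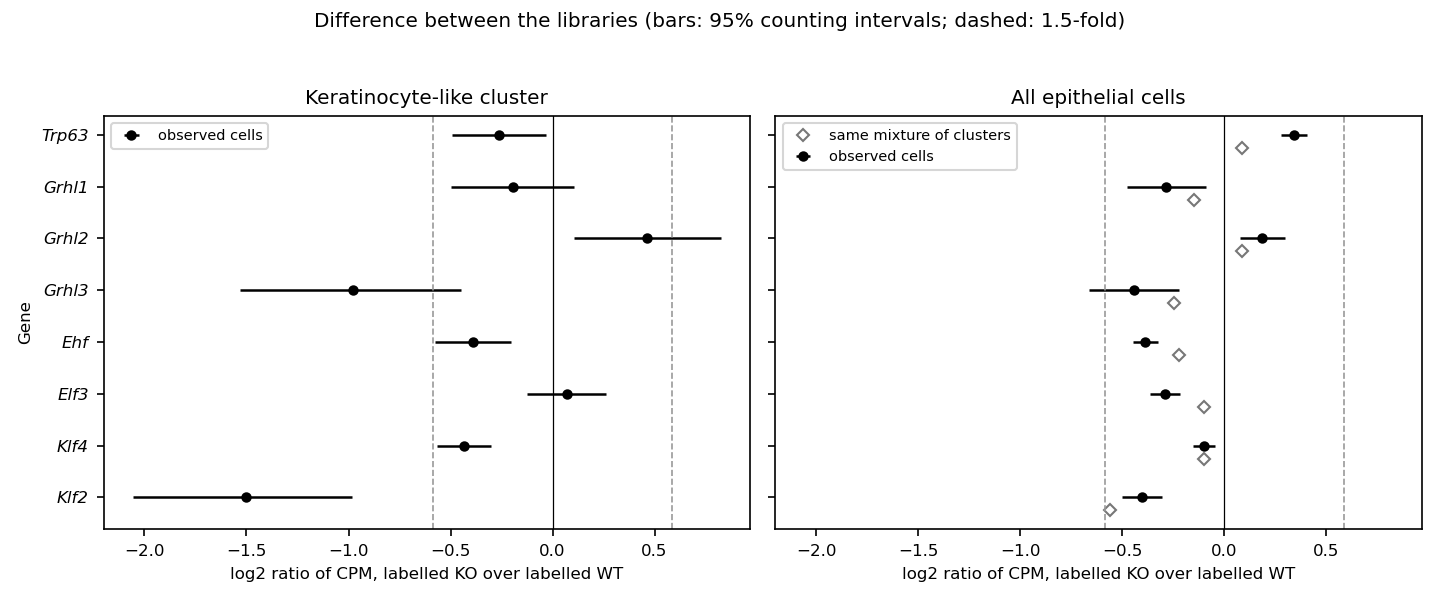
Log2 ratio of CPM, library labelled KO over library labelled WT (horizontal axis), for the 8 genes (vertical axis) in the keratinocyte-like cluster and over all epithelial cells, with bars for 95% counting intervals, dashed lines at 1.5-fold and diamonds for the same mixture of clusters in both libraries. Klf2 and Grhl3 lie beyond the lower line in the keratinocyte-like cluster, and no observed ratio does so over all epithelial cells.

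Within the 2 parts of the keratinocyte-like cluster, Klf2 was lower in the library labelled KO by log2 -0.93 (interval -1.89 to -0.06; 14 and 54 UMIs) in the keratinocyte-like part and by -1.90 (-2.59 to -1.26; 24 and 127 UMIs) in the secretory-like part. Grhl3 was lower by -0.63 (interval -1.39 to 0.08) and -0.83 (-1.63 to -0.08). Ehf was lower by -0.73 in the keratinocyte-like part, with 222 and 368 CPM, and by -0.09 in the secretory-like part. In the keratinocyte-like part 3 of 8 genes were thus at least 1.5-fold lower, beside 15.3% of all genes, and in the secretory-like part 2 of 8, beside 12.6%, while none was that much higher, beside 11.9% and 10.3%. The cluster's summed airway secretory markers stood at 10641 and 6154 CPM and its keratinocyte markers at 7066 and 9296 CPM, and the part of this makeup in the ratios of the whole cluster was not tested beyond the division just given. Grhl3 does not hold its place under every choice: it was -0.22 with equal weight per cell and -0.35 with classes from markers per cell.

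Across the 13 epithelial clusters, 94 comparisons of these genes had at least 20 UMIs. In 4 of them (4.26%) the gene was at least 1.5-fold higher in the library labelled KO and in 15 (16.0%) at least 1.5-fold lower, beside 10.6% and 11.3% of all gene comparisons. Klf2 gave 6 of the 15, and without it 4 and 9 of 81 remained (4.94% and 11.1%), a share of lower values near that of all genes. Grhl3 gave 4 lower and 1 higher of 8 comparisons, Ehf 2 lower and 1 higher of 13, and Grhl1 gave 1 in each direction of 8. Grhl2 gave 1 higher and Elf3 1 lower of 13. Counting intervals included 0 for the lower Grhl3 values in cycling cells (13 and 22 UMIs) and neuroendocrine-like cells (8 and 13 UMIs). They also did so for the lower values of Ehf in cluster 13 and of Grhl1 in tuft-like cluster 1. The same held for the higher Grhl2 value, in cluster 13 on 13 and 12 UMIs. Klf4 passed the fold in no cluster, and Trp63 passed it once, lower in ciliated-like cells at 86.2 against 143 CPM over 38 and 40 UMIs.

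Klf2 was below 0 in 10 of 13 clusters. Beside the keratinocyte-like cells it passed the fold in Aire-stage cells (45 and 78.1 CPM, log2 -0.80), in cluster 4 (30.2 and 57.8 CPM, -0.94), in cycling cells (28.8 and 50.3 CPM, -0.81), in neuroendocrine-like cells (90.9 and 138 CPM, -0.61) and in cluster 13 (36.7 and 74.8 CPM, -1.03). It did not pass it in the Ccl21 mTEC-like, tuft-like, microfold-like or ciliated-like clusters or in cluster 7, where the log2 ratios ran from -0.27 to 0.09. The lowest of these was that of the Ccl21a-high cluster, whose interval of -0.48 to -0.07 did not include 0. In endothelial-like cells the direction was opposite, with 408 CPM in the library labelled KO and 230.4 CPM in the library labelled WT. The heat shock gene Hspa1a was below 0 in 13 of 13 epithelial clusters and past the fold in 12, with a median log2 ratio of -0.97, and Klf6, a KLF gene that like Klf2 responds quickly to stimuli, was below 0 in 12 of 13 and past the fold in 3, with a median of -0.39. The median of Klf2 over the same clusters was -0.27. The immediate early gene Fos had a median log2 ratio of -0.02 and passed the fold in none. These genes are known to respond to cell handling, and their part in the Klf2 values was not tested.

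**Figure D5:**
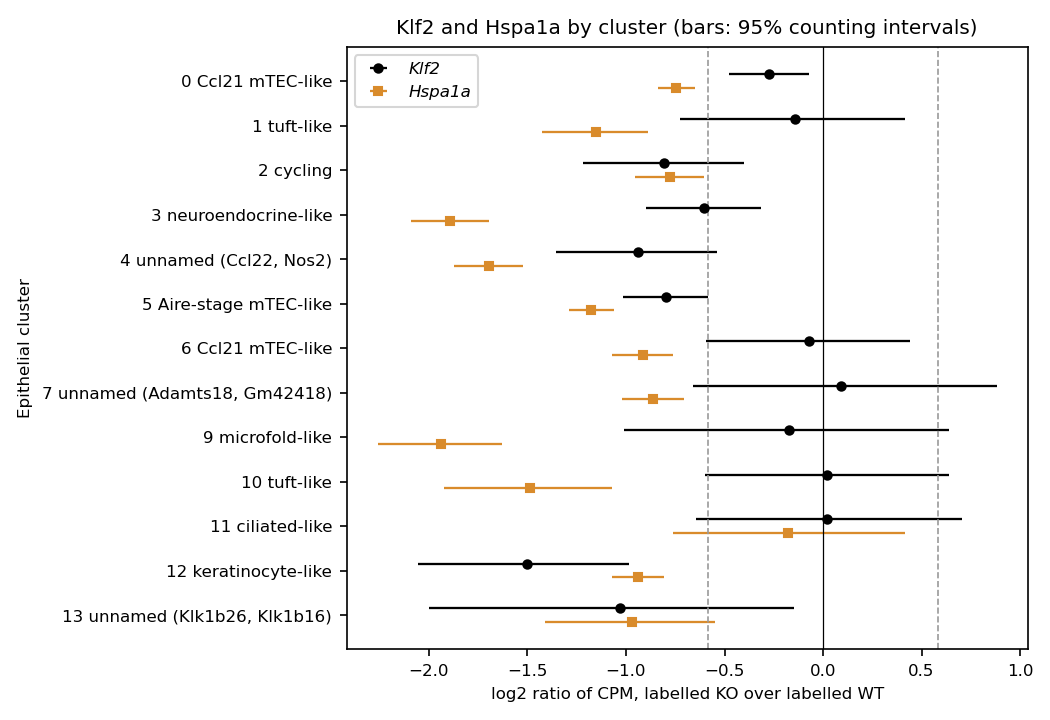
Log2 ratio of CPM, library labelled KO over library labelled WT (horizontal axis), of Klf2 (circles) and of the heat shock gene Hspa1a (squares) in the 13 epithelial clusters (vertical axis), with bars for 95% counting intervals and dashed lines at 1.5-fold. Hspa1a lies below 0 in every cluster, and Klf2 passes the lower line in 6.

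Genes of the same pathways were counted in the keratinocyte-like cluster from lists chosen by function, each gene with at least 20 UMIs. Of all genes there, 10.9% were at least 1.5-fold higher and 10.4% that much lower, the median log2 ratio was -0.02, and the counts below are read against these shares. Of 15 keratinocyte differentiation genes 1 was at least 1.5-fold higher (Sprr1b, 151 and 88.6 CPM) and 2 that much lower, where the list's median was -0.26. The lower ones were Lor, which encodes the cornified envelope protein loricrin (50.2 and 150.5 CPM, log2 -1.58), and Spink5, a protease inhibitor gene (1109 and 1781 CPM, -0.68). Of 14 basal structure genes none was higher and 1 lower, the Notch ligand gene Jag2 (10 and 43 UMIs), with a median of -0.30, while the basal keratin genes Krt5 and Krt14 stood at -0.29 and 0.55. Of 14 junction genes 1 was higher (the protease gene Prss8, 0.80) and none lower, with a median of 0.12.

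Against the same shares of 10.9% higher and 10.4% lower, 1 of 18 other epithelial transcription factor genes was higher (Tfap2c, 0.87) and 3 were lower, including Foxn1, the master factor of thymic epithelium (29.4 and 51.6 CPM, -0.81), and the list's median was -0.28. Of 16 measured relatives of the 8 genes, Spdef, an ETS factor of secretory cells, was higher (42.3 and 12.9 CPM, 1.71) and Klf6 lower (394 and 633 CPM, -0.68), with a median of 0.10. Of 18 immediate early and heat shock genes none was higher and 5 lower, with a median of -0.27. The lower ones were the heat shock genes Hspa1a (-0.94), Hspa1b (-0.88), Hsph1 (-0.84) and Dnajb1 (-0.78), and Klf6, already counted among the relatives. No other immediate early gene of the list passed the fold. Only 2 of 6 genes linked to Klf2 in endothelium and T cells had enough UMIs, and S1pr1, the receptor gene through which T cells leave the thymus, was lower (17 and 52 UMIs, -0.87).

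Over all epithelial cells the differentiation list had 5 of 15 genes at least 1.5-fold lower and none higher, beside 9.81% and 7.51% of all genes, with a median of -0.40 beside -0.01 for all genes, and Lor was again lowest at 7.42 and 21.8 CPM. The basal structure and junction lists had no gene past the fold in either direction, with medians of 0.01 and -0.01. Of 17 relatives Trp73, which encodes p73, was the 1 gene past the fold, higher at 5.67 and 2.74 CPM (log2 1.05). Trp73 met the 2-fold rule in the ciliated-like cluster, as did 8.54% of all genes. That cluster held 42 and 29 cells, 1.29% and 0.748% of the epithelial cells. In the Ccl21a-high cluster the log2 ratio of Trp73 was -0.05 on 21 and 17 UMIs. Among the genes linked to Klf2, S1pr1 (log2 -0.92) and Nos3 (-0.63 on 32 and 68 UMIs), which encodes endothelial nitric oxide synthase, were past the fold and lower. Tek (-0.41), Itgb7 (-0.04) and Thbd (0.54) of the same list did not pass it. S1pr1 and Nos3 both met the 2-fold rule in Aire-stage cells, as did 16.2% of all genes. Those cells were 13.9% and 18.2% of the epithelial cells. The keratinocyte-like cluster held 191 of 3264 and 310 of 3877 epithelial cells, and the part of the cluster mixture in these pooled list values was not tested.

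The closest patterns of the remaining genes over the 13 clusters, by the smaller of the libraries' correlations, were those of Zfp532 (0.936), Gab1 (0.925) and Ddx60 (0.924) for Grhl2 and of Dgat2 (0.828), Metrnl (0.823) and Piezo1 (0.819) for Grhl3. For Ehf they were Sort1 (0.903), Epha4 (0.896) and Cadps2 (0.891), and for Elf3 Lrp10 (0.908), Krtcap3 (0.907) and Myo5b (0.896). Sort1 encodes a sorting receptor and Myo5b a motor of apical transport. Klf4 was nearest to Zfand5 (0.908), Rab27b (0.906) and Slk (0.905). For Klf2 no gene exceeded 0.719, the value of Atraid, followed by Chic2 (0.715) and Arl3 (0.702). The pattern of Klf2 was thus the least closely matched of the 8, over the same clusters and libraries. Between the 8 genes, the next pairs after Trp63 and Grhl2 by the smaller correlation were Ehf and Klf4 at 0.67 and 0.66, and Grhl1 and Klf4 at 0.58 and 0.70. Grhl2 and Klf4 followed at 0.66 and 0.55, and Grhl1 and Grhl3 at 0.48 and 0.73. Then came Trp63 and Klf4 at 0.39 and 0.49, Elf3 and Klf4 at 0.42 and 0.39, and Ehf and Elf3 at 0.38 and 0.62.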

How the data were processed

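Single-cell RNA of sorted EPCAM+ mouse thymic epithelial cells was measured in 1 library labelled Foxp1 KO and 1 labelled Foxp1 WT. The matrices hold the raw UMI counts per gene and barcode that the authors deposited, whose headers name Cell Ranger 7.0.1; Seurat and mm10 are named in the submitters' processing notes. The lowest total of a deposited barcode is 500 UMIs in each library. No column of per-sample values was left unused (0).

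Kept cells had 500 or more genes, 1000 or more UMIs and no more than 10% of mitochondrial UMIs. The doublet caller (scrublet, scanpy 1.11.5) called 0 cells and is taken not to have worked, so doublets were not removed. The joint clustering used no integration (3000 variable genes, 30 components, 15 neighbours, Leiden resolution 1; Python 3.11.15, igraph 0.11.9), leaving the 8 genes out. Clusters were named from marker lists, with naming thresholds set after the clusters had been seen. UMIs were summed per cluster and library as CPM; levels carry exact Poisson, ratios exact conditional binomial and shares Clopper-Pearson 95% intervals, for counting error only. A ratio needed 20 UMIs over both libraries, and 1.5-fold counted as a difference; enrichment needed 50 UMIs and 2-fold. With 1 library per group no test was made, and the scripts were tested on simulated data. The 8 genes, the gene lists and the markers were chosen with earlier results of these data known. Named genes are the 8, genes of each list with most UMIs or the largest ratios, and the 3 genes most like each of the 8; list members meeting the 2-fold rule and genes past the fold were named after their values were seen. Gene positions come from GENCODE release M21 on mm10.

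Alternatives were a stricter cell filter, leaving out the highest doublet scores, resolutions 0.5 and 2, the 8 genes left in the clustering, classes from markers per cell, equal weight per cell, thinning to 1000 UMIs or none, and other folds and UMI minimums; 3 more were added after seeing the data. The value of 1 listed gene is not reported here.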

Additional observations from a re-analysis of the deposited data

Results flagged for a closer look

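Grhl3 pointed in opposite directions in different clusters. It was higher in the library labelled KO in Ccl21 mTEC-like cluster 6, by log2 1.39 on 20 and 13 UMIs, and lower in tuft-like cluster 1, by -1.13 on 8 and 40 UMIs, and in the keratinocyte-like cluster, by -0.98 on 39 and 128 UMIs. Ehf likewise was higher in the unnamed cluster 7, by log2 0.67 on 173 and 58 UMIs, and lower in microfold-like cells, by -0.84 on 30 and 76 UMIs. What set these values apart is that the 1 library of each label moved one way in some clusters and the other way in others, with counting intervals that did not include 0. With 1 library per label, the difference between clusters was not tested.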

How the results depend on the processing

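No paired analysis was possible because each group is 1 library and the replicate number is only a name. Over 64 results and 293 alternatives, 227 values stayed within their counting interval, 66 moved and 0 of the differences past the fold changed sign. KO and WT below mean the libraries so labelled, and class values are log2 over the other epithelial cells with both libraries pooled.

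In the keratinocyte-like class Grhl1 (3.35) was 3.63 when classes came from markers per cell, and 3.87 at resolution 2. Grhl3 (1.92) was 2.28 with markers per cell, 2.34 with equal weight per cell and 2.31 at resolution 2. Klf4 (1.65) was 1.76, 1.5 and 2.02 in the same order, and 1.80 without the highest doublet scores. Elf3 (1.26) was 0.45 with markers per cell, 0.64 at resolution 2, 1.45 at resolution 0.5 and, leaving out the highest doublet scores, 1.40. In the tuft-like class Ehf (2.38) was 2.53 and Elf3 (1.83) 1.97 without the highest doublet scores, and Elf3 was 2.13 with equal weight and 1.62 with the stricter filter. In the Ccl21 mTEC-like class Trp63 (1.58) was 1.83 with markers per cell, 1.21 with equal weight, 1.97 with the 8 genes left in, 2.04 and 1.34 at resolutions 0.5 and 2, 2.0 with the stricter filter and 2.05 without the highest doublet scores. Grhl2 (1.11) was 0.94 with equal weight, 1.42 with the 8 genes left in, 1.39 and 0.98 at resolutions 0.5 and 2, 1.41 with the stricter filter and 1.35 without the highest doublet scores. Klf2 (0.93) was 0.80 with the 8 genes left in and 0.71 and 1.14 at resolutions 0.5 and 2. Members 2-fold above the rest in this class numbered 2 in place of 1 in 5 alternatives (stricter filter, no highest doublet scores, resolution 0.5, the 8 genes left in, markers per cell).

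For KO over WT in keratinocyte-like cells, Klf2 ranged from -1.90 to -0.77, the latter with markers per cell, and was -0.93 at resolution 2. Grhl3 was -0.35 with markers per cell and -0.22 with equal weight, Elf3 -0.19 with markers per cell, Grhl1 0.11 with equal weight, Trp63 -0.50 without the highest doublet scores and Ehf -0.73 at resolution 2. Members lower past the fold numbered 1 with markers per cell or a 2-fold rule, and 1 was higher with markers per cell. Over all epithelial cells, Ehf was -0.49 and Klf2 -0.26 with markers per cell, and Trp63 0.42 and Elf3 -0.37 with equal weight. With 3 or more Krt1 or Krt10 UMIs, Elf3 was -0.55 in KO, Trp63 1.01 and Klf4 0.92 in WT. At 50 UMIs, 1 gene linked to Klf2 was lower.

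Of the alternatives chosen after seeing the data, the same mixture of clusters gave 0.086 for Trp63, -0.22 for Ehf, -0.10 for Elf3 and -0.56 for Klf2. Without clusters 7 and 13 Trp63 was 0.21. In the keratinocyte-like part Ehf was -0.73 and Klf2 -0.93, and in the airway secretory-like part Grhl1 was 0.44 and Ehf -0.092. Depth limits Grhl3 and Grhl1 most, with 752 and 944 epithelial UMIs in all. The cause of these shifts was not tested.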
